A study of Bos taurus with 179 samples.

Results

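The mitochondrial ATP synthase genes described here encode the catalytic head and both stalks of the enzyme. They are ATP5F1A, ATP5F1B, ATP5F1C, ATP5F1D and ATP5F1E of the F1 head and central stalk, and ATP5PB, ATP5PD and ATP5PO of the peripheral stalk. These 8 genes were chosen by symbol from the 21218 gene IDs of the count table, by a rule that names the subunits and not their levels. They were followed through single bovine (Bos taurus) oocytes that grew from a diameter of 48 to 135 μm. Each library held the polyadenylated mRNA of 1 denuded oocyte, recovered from abattoir ovaries and amplified by a Smart-seq2 type protocol. Growing oocytes came from the sliced cortex (late secondary to early antral follicles) and fully grown ones from aspirated surface follicles. The cortex was sliced in a medium that held heparin and cilostamide, a phosphodiesterase inhibitor. The labels name no treatment and do not say which route an oocyte came by, so that diameter and route cannot be told apart. Of 179 sequenced oocytes, 14 that the study does not list as analysed were set aside, and the rest fell by diameter into groups of < 60 μm (n = 21), 60-69 μm (n = 25), 70-79 μm (n = 23), 80-89 μm (n = 24), 90-99 μm (n = 21), 100-109 μm (n = 18), 110-119 μm (n = 19) and > 120 μm (n = 14). The study removed oocytes by their number of reads, their number of expressed genes and their share of reads from mitochondrial genes. Libraries were made in 2 replicates, with 97 oocytes in replicate 1 (reads of 150 bp) and 68 in replicate 2 (reads of 75 bp), so that read length and library batch cannot be told apart. No label names the animal, so p-values cover the spread between sums of libraries, which may be technical.

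ATP synthase makes ATP from ADP and phosphate with the energy of protons that flow back across the inner mitochondrial membrane. The flow turns a ring of c subunits in the membrane, the central stalk turns with it inside the head, and the turning changes the shape of the catalytic sites, while the peripheral stalk holds the head still. The head and stalk subunits are encoded in the nucleus, whereas 2 subunits of the membrane part, ATP6 and ATP8, are encoded in mitochondrial DNA, and a growing oocyte builds up a large store of mitochondria.

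Total counts per oocyte ranged from 277126 to 8038061, with a median of 1763520. Levels are given in CPM, the usual scaling of read counts to one common library size (here after TMM normalization), that is, as a share of the counted mRNA and not as an amount per oocyte, and since no transcript lengths were at hand, levels are compared between oocytes and not between genes. The 6 oocyte markers had counts in every size group, with medians of their summed level between 4639 and 9201 CPM, and those of the 11 markers of somatic ovarian cells lay between 21.5 and 53.6 CPM. Of the somatic markers, AMHR2, CYP11A1, COL1A1, COL3A1 and CD34 were at 0 counts in 155 to 163 of the analysed oocytes and CALD1 in 107, while GATM was at 0 in 46 and COL1A2, COL4A1, ACTA2 and CD44 in 14 to 22, so that most oocytes held some counts of these 5. Replicate 1 of the < 60 μm group held only 3 oocytes, replicate 2 of the > 120 μm group only 4, and 1 oocyte gave 52.93% of the counts of replicate 1 at 100-109 μm.

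All 8 genes were detected in every one of the analysed oocytes (97 and 68 in replicates 1 and 2). The lowest count of any of them was 4, for ATP5F1E in 1 oocyte of replicate 1. Taken as one sum, the 8 genes made up between 1805 and 4587 CPM of the unscaled library, with a median of 2661. The median of this sum over a size group stayed between 2442 and 3072 CPM in replicate 1 and between 2128 and 2839.8 CPM in replicate 2. Single members differed between the replicates in opposite directions, as the plot of each gene against diameter shows.

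**Figure D1:**
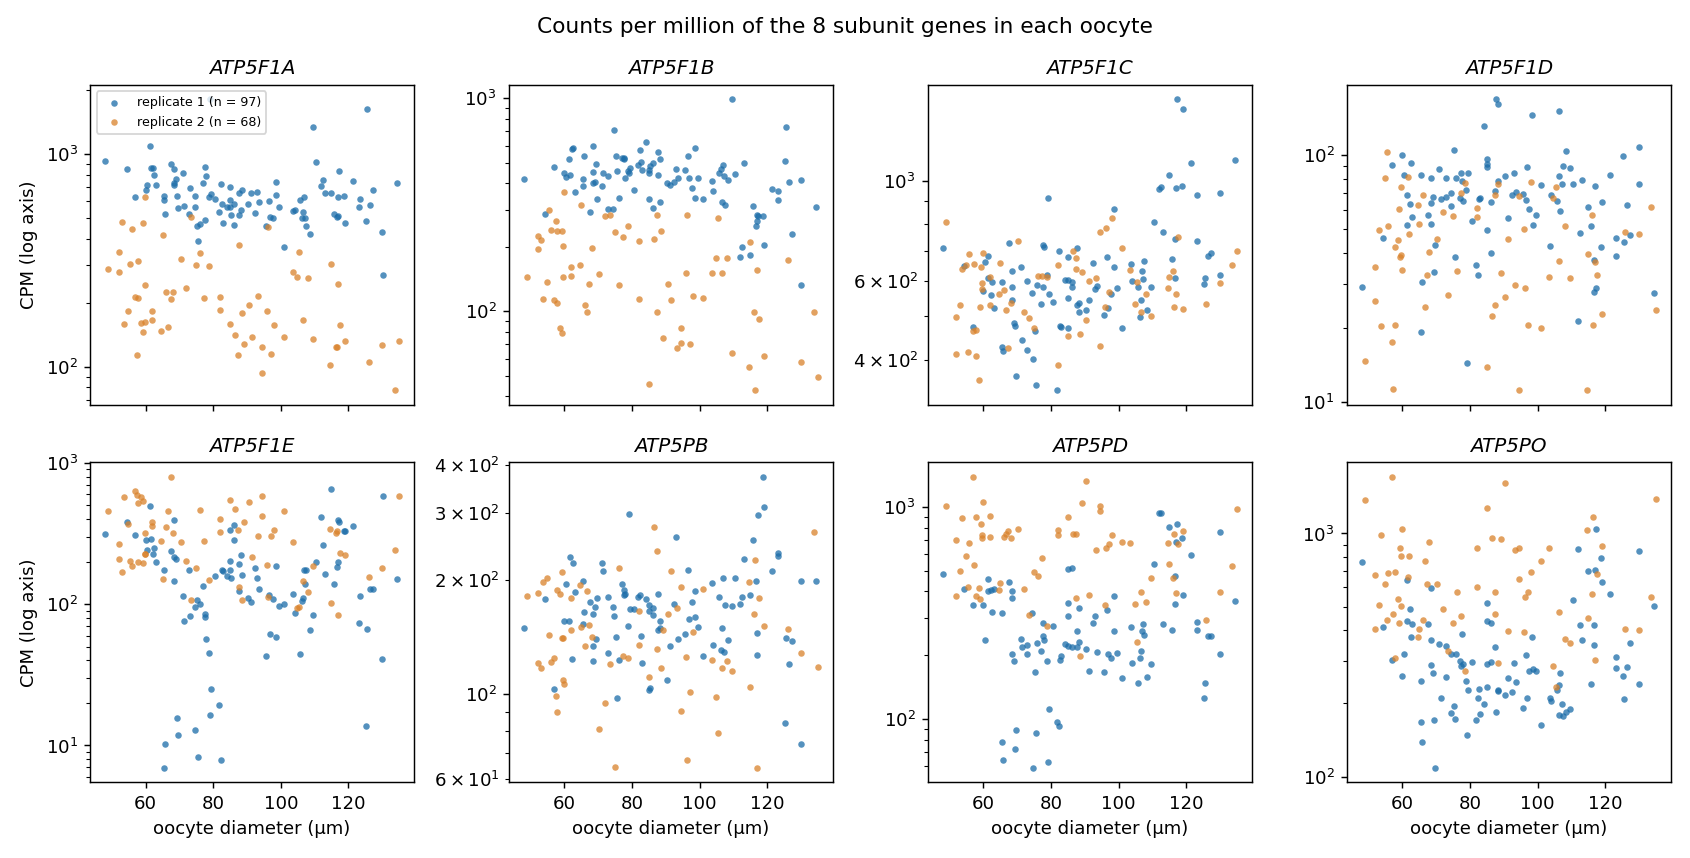
Level of each of the 8 genes in single oocytes, in CPM on a log axis, against oocyte diameter in μm. Each point is 1 oocyte, with 97 of replicate 1 in blue and 68 of replicate 2 in orange. ATP5F1A and ATP5F1B lie higher in replicate 1, ATP5PD and ATP5PO in replicate 2, and ATP5F1C forms a narrow band in both.

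ATP5F1A (ENSBTAG00000002507) and ATP5F1B (ENSBTAG00000013315) encode the α and β subunits that alternate around the head, and β carries the catalytic sites. ATP5F1A had a median of 616.3 CPM (271.4 to 1805, n = 97) in replicate 1 and 190.7 CPM (77.6 to 625.1, n = 68) in replicate 2. For ATP5F1B the medians were 422.8 CPM (133.00 to 988.5, n = 97) and 149.00 CPM (42.6 to 364.02, n = 68). Both genes were lower in replicate 2 in every size group, by log2 differences of -2.74 to -1.51 for ATP5F1A and -2.25 to -0.96 for ATP5F1B. The group with the highest median of ATP5F1A was <60 μm (852.4 CPM) in replicate 1 and 70-79 μm (299.7 CPM) in replicate 2, and the group with the lowest was 100-109 μm (536.8 CPM) and >120 μm (116.02 CPM), respectively. For ATP5F1B the highest medians were at 80-89 μm (472.8 CPM) and 70-79 μm (234.9 CPM), and the lowest at 110-119 μm (272.9 CPM) and >120 μm (78.8 CPM). In both replicates, therefore, the lowest ATP5F1B medians stood in the groups of 110 μm upward.

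ATP5F1C (ENSBTAG00000013930), ATP5F1D (ENSBTAG00000000550) and ATP5F1E (ENSBTAG00000039208) encode γ, δ and ε, the subunits of the central stalk. ATP5F1C had the smallest spread of the 8 genes. Its medians were 596.2 CPM (342.8 to 1514, n = 97) in replicate 1 and 575.99 CPM (361.1 to 826.5, n = 68) in replicate 2, and the replicates differed by -0.59 to 0.21 on the log2 scale over the 8 size groups. Its SD within size group and replicate was 0.29 on the log2(CPM + 1) scale, and 0.197% of the 508 genes whose mean level was within 1 log2 unit had a smaller one. ATP5F1E was at the other end, with an SD of 1.11, and 99.4% of its 2017 genes of like level had a smaller one. The ATP5F1E medians were 145.7 CPM (6.96 to 652.8, n = 97) and 280.02 CPM (83.5 to 795.8, n = 68), and those of ATP5F1D were 67.1 CPM (14.4 to 166.9, n = 97) and 39.9 CPM (11.2 to 102.03, n = 68). In 11 oocytes, all of replicate 1 and 65.5 to 125.2 μm wide, ATP5F1E was under 30 CPM, a limit chosen after the values were seen. They held 4 to 83 ATP5F1E counts in totals of 294744 to 7427594, with ATP5PD between 59.1 and 125.6 CPM and ATP5F1B between 336.6 and 714.3 CPM.

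ATP5PB (ENSBTAG00000006441) encodes subunit b, ATP5PD (ENSBTAG00000021227) subunit d, and ATP5PO (ENSBTAG00000018278) the oligomycin sensitivity conferring protein at the top of the peripheral stalk. ATP5PB had medians of 168.2 CPM (74.2 to 372.02, n = 97) and 140.3 CPM (64.2 to 275.5, n = 68), with log2 differences between replicates of -0.79 to 0.38. ATP5PD had medians of 245.7 CPM (59.1 to 940.2, n = 97) and 668.4 CPM (197.7 to 1385, n = 68), and ATP5PO of 278.99 CPM (108.7 to 1043, n = 97) and 576.4 CPM (233.7 to 1709, n = 68). Both were higher in replicate 2, ATP5PO in 8 of 8 size groups (0.45 to 1.47) and ATP5PD in 7 of 8 (-0.01 to 1.64), opposite to ATP5F1A and ATP5F1B. Over the 14087 genes tested, the mean log2 difference between replicates had a median of -0.18 and a range of -1.89 to 1.77 from the 5th to the 95th percentile, and 40.3% of genes had the same sign in all 8 groups. ATP5F1A (-1.92) was below that range and the other members were inside it. In replicate 1 the highest medians of both ATP5PD and ATP5PO were at 110-119 μm (610.6 and 579.8 CPM) and the lowest at 100-109 μm (194.4 and 199.2 CPM). In replicate 2 the highest were at 80-89 μm (745.1 and 735.4 CPM), above those at 110-119 μm, and the lowest were again at 100-109 μm (395.9 and 366.5 CPM). When the 8 size groups were put in order of their medians for each gene and replicate, the ranges of neighbouring groups overlapped in all 112 pairs. The lowest and highest groups of an order, which the medians themselves pick, did not overlap in 2 of 16 orders, those of ATP5F1A in replicate 2 and of ATP5F1E in replicate 1. Over all genes tested, 0.0588% of neighbouring pairs and 9.58% of lowest and highest groups did not overlap.

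To ask whether the members followed oocyte growth, the summed counts of each size group and replicate (16 sums) were compared with edgeR's quasi-likelihood test, with the replicate as a block and p-values adjusted by the Benjamini-Hochberg method over 14087 genes. None of the 8 genes passed an adjusted p of 0.05 over the 8 size groups, a test that 14.9% of all genes passed. The lowest value was that of ATP5F1E (adjusted p = 0.0919), and 3 members, ATP5F1E, ATP5PD and ATP5PO, had an unadjusted p under 0.05, as did 31% of all genes. Between the extremes, > 120 μm against < 60 μm, no member was called either, against 19.2% of all genes, and no member had an unadjusted p under 0.05, against 33.5%. There the log2 fold changes ran from -0.86 for ATP5F1E to 0.25 for ATP5F1C, with a median of -0.27 beside -0.12 over all genes. DESeq2 called 3 members over the 8 size groups, where it called 29.1% of all genes, and 0 between the extremes, where it called 24.3%.

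The calls fell in 3 comparisons. In the step from 100-109 to 110-119 μm, edgeR called ATP5PD and ATP5PO of the peripheral stalk higher and no member lower. DESeq2 called these 2 higher as well, and also ATP5F1E higher (1.25, adjusted p = 0.0274) and ATP5F1B lower (-1.02, adjusted p = 0.0213), and so did edgeR without the filter on low counts, in fits that called 16.5% and 7.33% of their genes in this step. The DESeq2 share is of the 11902 genes to which it gave an adjusted p. The 2 of 8 members called higher by edgeR stand beside all genes, of which 1.89% were called higher and 3.88% in either direction. ATP5PD went in replicate 1 from 194.4 CPM (148.4 to 281.9, n = 11) to 610.6 CPM (261.8 to 940.2, n = 12), and in replicate 2 from 395.9 CPM (231.6 to 680.8, n = 7) to 668.8 CPM (393.2 to 767.5, n = 7). The oocyte ranges overlapped in both replicates, narrowly in replicate 1. Its log2 fold change was 1.25 ± 0.35 (SE), with an adjusted p of 0.049 in edgeR, from 1.88 within replicate 1 and 0.44 within replicate 2. ATP5PO went from 199.2 CPM (163.1 to 267.6, n = 11) to 579.8 CPM (240.4 to 1043, n = 12) in replicate 1 and from 366.5 CPM (233.7 to 873.6, n = 7) to 684.4 CPM (300.5 to 1168, n = 7) in replicate 2. Its log2 fold change was 1.19 ± 0.32 (SE), with an adjusted p of 0.046 in edgeR (1.69 and 0.67 within replicates 1 and 2). The ATP5PO ranges also overlapped in both replicates, and for both genes the medians stood farther apart in replicate 1, whose 100-109 μm sum rests largely on 1 deep oocyte. Without that oocyte the log2 fold changes were 1.23 and 1.16, and both stayed called (adjusted p = 0.0489 and 0.0415).

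Depth moved with this step too. In replicate 1 the median total was 627581 counts at 100-109 μm and 2775303 at 110-119 μm, while in replicate 2 the medians were 1352974 and 1332591. With every oocyte thinned to 250000 counts, ATP5PD and ATP5PO were still called (log2 fold changes of 1.06 and 1.06) in a fit that called 6.55% of all genes. Without the replicate block their log2 fold changes were 0.99 and 1.01, and neither was called (adjusted p = 0.835 for each), nor was any of the 14087 genes. Neither was called with limma on mean log2(CPM + 1) (0.95, adjusted p = 0.078 for ATP5PD and 1.02, adjusted p = 0.0515 for ATP5PO), or when all 179 oocytes were used (adjusted p = 0.14 and 0.148), in fits that called 1.9% and 0.0142% of all genes. Both calls were near the threshold and were lost on leaving out any one of 8 of the 16 sums, those of 60-69 μm (replicates 1 and 2), 80-89 μm (replicates 1 and 2), 90-99 μm (replicates 1 and 2), 100-109 μm (replicate 1) and 110-119 μm (replicate 1), with log2 fold changes of 0.50 to 1.30 for ATP5PD and 0.82 to 1.23 for ATP5PO (adjusted p of 0.054 to 0.578 and 0.0527 to 0.465). Those 8 fits called 0 to 2.06% of all genes in this step, and no gene at all without replicate 1 of 100-109 or of 110-119 μm. Of the 6 oocyte markers, 2 had positive and 4 negative log2 fold changes in this step, from -0.98 to 1.52 with a median of -0.29. BCAR4 was called higher (1.52 ± 0.26 (SE)) and the other 5 were not called, and none of the 6 somatic markers tested was (1 at an unadjusted p under 0.05). The summed somatic level had a median of 50.2 CPM (16.5 to 78.1) at 100-109 μm and 31.1 CPM (10.6 to 108.9) at 110-119 μm. By replicate, its medians were 52.2 and 36.8 CPM in replicate 1, and 21.5 and 22.4 CPM in replicate 2. Of the somatic markers tested, 5 had negative log2 fold changes and 1 a positive value, with a median of -0.45. The part of depth and of these markers in the result was not tested further. Other members in the same step had values on both sides of 0. ATP5F1E, with 1.21 ± 0.42 (SE), did not pass (adjusted p = 0.0849), nor did ATP5PB with 0.44 ± 0.28 (SE) and ATP5F1C with 0.46 ± 0.27 (SE). ATP5F1B had -1.06 ± 0.32 (SE) with an adjusted p of 0.059, just outside the threshold, and was negative within both replicates (-1.29 and -0.78). Without the deepest 100-109 μm oocyte it was -0.67, adjusted p = 0.2, and with thinned counts -0.67, adjusted p = 0.112. ATP5F1D and ATP5F1A had -0.52 and -0.44.

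From below 70 μm to 70-109 μm, ATP5F1E fell, as 1 of 8 members against 4.37% of all genes called lower and 9.5% called in either direction. In replicate 1 its levels were 232.6 CPM (6.96 to 491.9, n = 20) below 70 μm and 110.1 CPM (7.93 to 362.9, n = 55) at 70-109 μm. In replicate 2 they were 337.2 CPM (150.6 to 795.8, n = 26) and 277.4 CPM (94.6 to 583.3, n = 31). The ranges overlapped widely, and the medians were lower at 70-109 μm in both replicates. The log2 fold change was -0.88 ± 0.24 (SE), with an adjusted p of 0.0289 in edgeR, and it was -1.40 within replicate 1 and -0.32 within replicate 2. The call was lost without the replicate block (-0.71, adjusted p = 0.675, in a fit that called 0.185% of all genes) and without any one of 8 sums, those of < 60 μm (replicate 1), 60-69 μm (replicates 1 and 2), 70-79 μm (replicate 1), 80-89 μm (replicates 1 and 2), 90-99 μm (replicate 1) and 100-109 μm (replicate 1), with log2 fold changes of -0.90 to -0.53 and adjusted p of 0.0552 to 0.277, the smallest change and the largest p being without the 3 oocytes of < 60 μm in replicate 1. Those 8 fits called 3.41 to 6.76% of all genes. Of the 6 somatic markers tested, 4 had positive and 2 negative log2 fold changes in the same comparison, from -0.97 to 1.60 with a median of 0.53. Those that rose included COL1A2 (1.60 ± 0.45 (SE)) and CD44 (1.16 ± 0.30 (SE), named after its value was seen). The summed level of all 11 markers was 3.29 to 114.8 CPM below 70 μm and 11.47 to 112.8 CPM at 70-109 μm. Of the 6 oocyte markers, 5 had positive log2 fold changes and 1 a negative value, with a median of 0.51, and 2 were called higher. The part of these markers in the result was not tested. The other 7 members did not pass, with log2 fold changes between -0.40 for ATP5PD and 0.09 for ATP5F1D.

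From 70-109 μm to 110 μm upward, ATP5F1B fell, again 1 of 8 members, where 7.68% of all genes were called lower and 14.8% in either direction. In replicate 1 its levels were 446.5 CPM (302.4 to 988.5, n = 55) at 70-109 μm and 295.9 CPM (133.00 to 732.4, n = 22) from 110 μm upward. In replicate 2 they were 151.2 CPM (45.6 to 283.96, n = 31) and 91.7 CPM (42.6 to 212.2, n = 11). The median was lower in the larger oocytes of both replicates, with overlapping ranges. The log2 fold change was -0.62 ± 0.20 (SE), with an adjusted p of 0.039 in edgeR (-0.48 and -0.79 within replicates 1 and 2). Without the deepest 100-109 μm oocyte it was -0.48 and not called (adjusted p = 0.0847). It was not called either with RLE normalization (-0.58, adjusted p = 0.058), with 1 line per gene ID (-0.58, adjusted p = 0.0629) or without the replicate block (-0.55, adjusted p = 0.832, in a fit that called 0.149% of all genes). The call was also lost without any one of 11 sums, those of 60-69 μm (replicates 1 and 2), 70-79 μm (replicate 2), 80-89 μm (replicates 1 and 2), 90-99 μm (replicates 1 and 2), 100-109 μm (replicate 1), 110-119 μm (replicates 1 and 2) and > 120 μm (replicate 2), with log2 fold changes of -0.66 to -0.39 and adjusted p of 0.054 to 0.337, in fits that called 6.64 to 13.7% of all genes. The somatic marker GATM also fell (-2.86 ± 0.52 (SE)). Of the 6 somatic markers tested, 5 had negative log2 fold changes and 1 a positive value, with a median of -0.58. The summed somatic level was 11.47 to 112.8 CPM at 70-109 μm and 10.6 to 108.9 CPM from 110 μm upward. Of the 6 oocyte markers, 5 had positive log2 fold changes and 1 a negative value, with a median of 0.59, and 3 were called higher. The part of these markers in the result was not tested. ATP5PO, at 0.55 ± 0.19 (SE), missed the threshold (adjusted p = 0.0557), but it was called higher in 14 of 27 alternative analyses, against 12 of 27 for ATP5F1B. These include DESeq2 (0.60, adjusted p = 0.0153), RLE normalization, limma, thinning to 250000 counts, no filter on low counts, 1 line per gene ID and leaving out that oocyte (0.58, adjusted p = 0.0294). The values of ATP5PD (0.44) and ATP5F1D (-0.38) did not pass. That of ATP5PD was 0.08, adjusted p = 0.883 without replicate 1 of 110-119 μm and 0.77, adjusted p = 0.0087 without its replicate 2, and it was called in 3 of 27 alternatives, thinned counts among them.

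**Figure D2:**
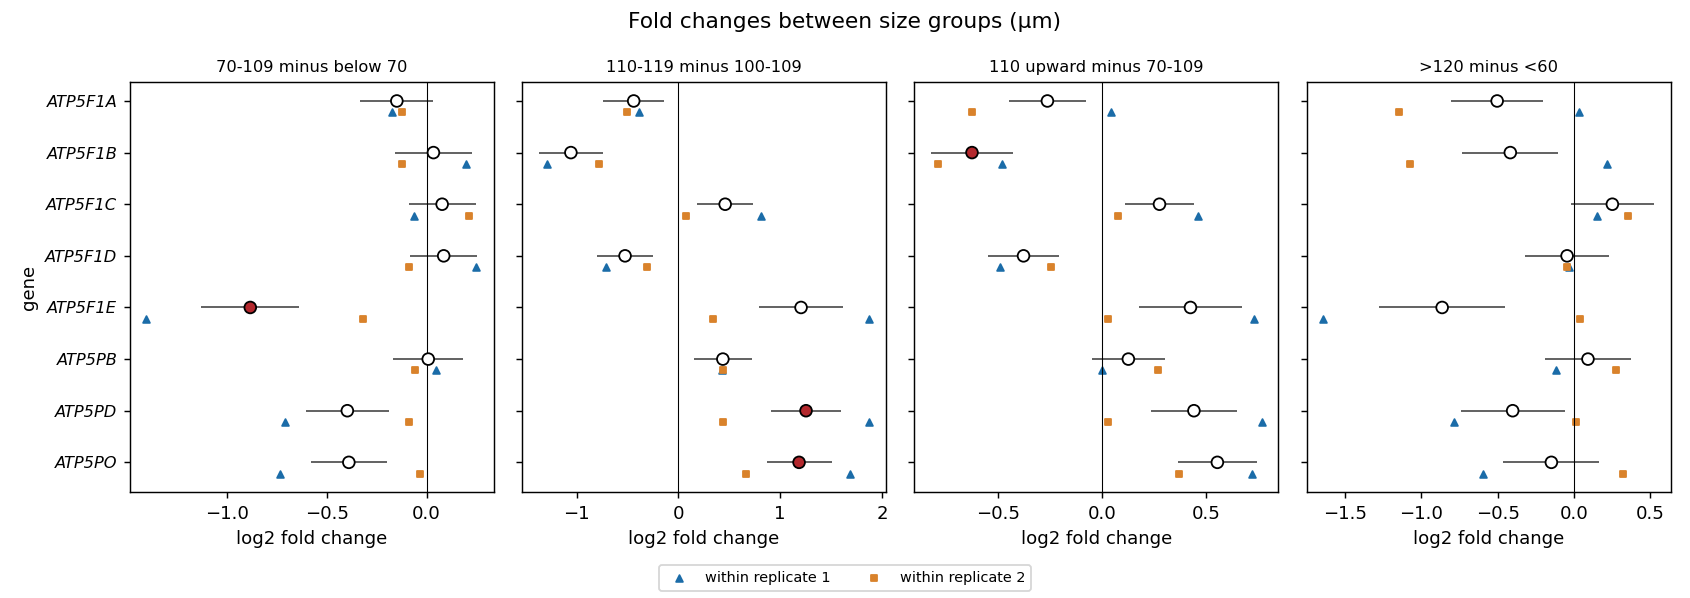
Log2 fold change of each gene in 4 comparisons of size groups, given above each panel in μm. Circles with bars are the fit and its SE, filled red where the adjusted p is under 0.05, and the blue triangles and orange squares below them are the same difference within replicate 1 and replicate 2. ATP5PD and ATP5PO are red from 100-109 to 110-119 μm, ATP5F1E from below 70 to 70-109 μm, and ATP5F1B from 70-109 μm to 110 μm upward.

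No member was called by edgeR in the other 6 comparisons, in which few genes were called at all. These were 60-69 against < 60 μm (0.0142% of all genes called), 70-79 against below 70 μm (0.135%), 80-99 against 70-79 μm (0%), 90-99 against 80-89 μm (0%), 100-109 against 80-99 μm (0.497%) and > 120 against 110-119 μm (0.0071%). Over all genes, 780 had an unadjusted p under 0.05 in the third of these and 469 in the fourth. DESeq2 called no member in any of the 6, where it called up to 4.46% of the genes to which it gave an adjusted p (506 of 11356 at 100-109 against 80-99 μm). Unadjusted p-values under 0.05 were found for ATP5F1E at 70-79 against below 70 μm (log2 fold change -1.24 ± 0.38 (SE)), for ATP5F1A at 80-99 against 70-79 μm (-0.63 ± 0.25 (SE)), for ATP5F1E, ATP5PD and ATP5PO at 100-109 against 80-99 μm (-0.83, -0.69 and -0.61), and for ATP5PD at > 120 against 110-119 μm (-0.86 ± 0.34 (SE)). The last value rested on single sums, at -0.15, adjusted p = 0.992 without replicate 1 of 110-119 μm and -1.47, adjusted p = 0.0258 without its replicate 2, where it was called. When 1 sum was left out, the others ran from -1.71 to -0.83 for ATP5F1E at 70-79 μm, -0.84 to -0.33 for ATP5F1A, and -1.07 to -0.54, -0.89 to -0.48 and -0.89 to -0.35 for ATP5F1E, ATP5PD and ATP5PO at 100-109 μm. No member had an unadjusted p under 0.05 in the other 2 comparisons. Over all genes the share with an unadjusted p under 0.05 was 3.21 to 16.1% in the 6. The medians of the 8 log2 fold changes were -0.05, 0.02, 0.08, -0.05, -0.17 and -0.27 in the same order, against -0.01, 0.02, -0.06, -0.02, -0.03 and 0.02 over all genes.

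Across single oocytes the members again did not follow diameter as one. With replicate means removed, Pearson's r between log2(CPM + 1) and diameter over the analysed oocytes (n = 97 and 68) was -0.40 for ATP5F1B and -0.35 for ATP5F1A, and 0.40 for ATP5F1C. The other 5 members lay between -0.05 for ATP5F1D and 0.09 for ATP5PD. Over all genes tested, r had a median of -0.04 and ran from -0.46 to 0.47 between the 5th and the 95th percentile, so all 8 members stood inside that range. Spearman's rho was -0.35, -0.35 and 0.34 for the same 3 genes. Within replicates 1 and 2, r was -0.37 and -0.44 for ATP5F1B, -0.23 and -0.45 for ATP5F1A, and 0.52 and 0.20 for ATP5F1C. For 4 of the 8 members r was positive in replicate 1 and negative in replicate 2, with 0.09 and -0.28 for ATP5F1E, 0.24 and -0.17 for ATP5PD, 0.16 and -0.07 for ATP5PO and 0.09 and -0.04 for ATP5PB. Once the 2 oocytes of most extreme diameter were dropped, the values of ATP5F1B, ATP5F1A and ATP5F1C were -0.38, -0.35 and 0.38. These values are descriptions with no test, since the oocytes of a replicate share a library batch and no label gives their animals.

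ATP5F1C stands on 2 lines of the count table under the same gene ID, and its counts were the sum of both. What sets the lines apart is not given in the sources used here. The line with more counts held 67.1% of them, with medians of 420.8 and 329.1 CPM in replicates 1 and 2, and the other line had medians of 161.4 and 232.5 CPM. The larger line had an r with diameter of 0.31 in replicate 1 and -0.27 in replicate 2. The smaller line had 0.57 and 0.58, so that in replicate 2 only the smaller line had a positive r. Fitted alone, the smaller line was not called in any of the 11 comparisons. It had a log2 fold change of 0.37 from 70-109 μm to 110 μm upward (adjusted p = 0.159 in edgeR) and of 0.38 from below 70 to 70-109 μm (adjusted p = 0.182 in edgeR), beside 0.27 and -0.05 for the larger line.

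With both replicates pooled, pairs of members had r of both signs, negative in 13 of 28 pairs and in 9 of the 15 that join a gene of the head or central stalk with one of the peripheral stalk. Some signs differed between replicates. ATP5F1A had 0.28, 0.11 and 0.24 with ATP5PB, ATP5PD and ATP5PO in replicate 1, and -0.43, -0.22 and -0.24 in replicate 2. Over the analysed oocytes, with replicate means removed, ATP5PD and ATP5PO had the highest r of any member pair (0.85), and ATP5F1E of the central stalk went with both (0.84 with ATP5PD and 0.69 with ATP5PO). ATP5PB, the third gene of the peripheral stalk, had 0.24 with ATP5PD and 0.32 with ATP5PO. ATP5F1A and ATP5F1B had 0.57 with each other, and ATP5F1B was negative with ATP5PD (-0.44), ATP5PO (-0.45) and ATP5F1E (-0.37). For ATP5PD and ATP5PO the value was 0.85 in replicate 1 and 0.89 in replicate 2, 0.83 with the means of the size groups removed as well, and 0.81 at 250000 counts per oocyte. For ATP5F1B and ATP5PD it was -0.53, -0.41, -0.40 and -0.41. Of all genes tested, 0% had a higher r with ATP5PO than ATP5PD had, and 0.0923% a higher r with ATP5PD than ATP5PO had. For ATP5F1E and its closest member, ATP5PD, this share was 0.163%, and for ATP5F1D, whose closest member was ATP5F1B, it was 18.6%.

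**Figure D3:**
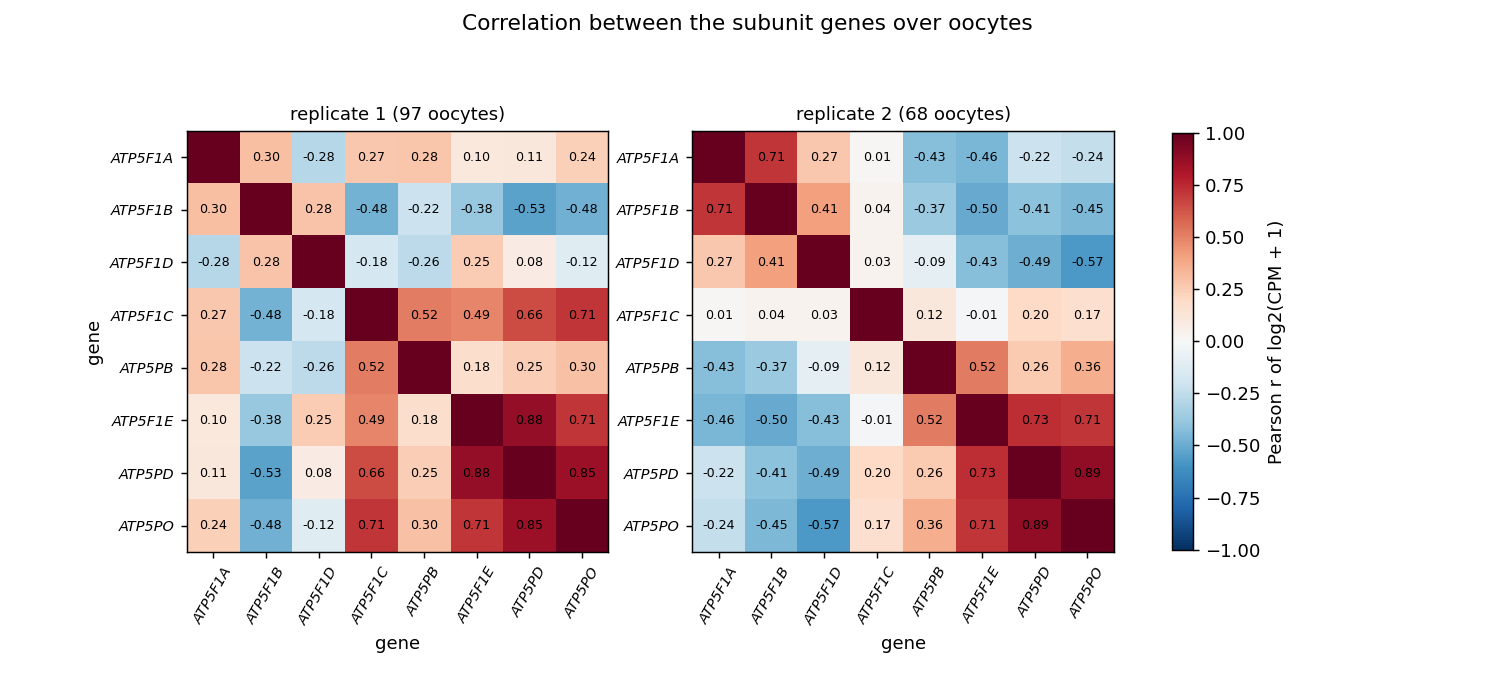
Pearson's r of log2(CPM + 1) between each pair of the 8 genes over the oocytes of replicate 1 (left, 97 oocytes) and replicate 2 (right, 68 oocytes), on a scale from -1 (blue) to 1 (red). ATP5F1E, ATP5PD and ATP5PO form a red block in both replicates, and ATP5F1B is blue against all 3 of them.

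The oocytes behind these values share their library batch and differ in depth. With replicate means removed, r with the log10 of the total count was 0.44 for ATP5PD, 0.42 for ATP5F1E and 0.41 for ATP5PO, and it was between -0.06 and 0.27 for the other 5. The same 3 genes had r of 0.51, 0.48 and 0.52 with the summed level of ATP6 and ATP8, the mitochondrially encoded subunits, ATP5PB had 0.29, ATP5F1C 0.12 and ATP5F1A -0.02, and ATP5F1B and ATP5F1D had -0.25 and -0.26. The values with ATP6 and ATP8 come from oocytes that the study had selected partly by their share of mitochondrial reads. The part of depth in the member correlations was not tested beyond the thinned values.

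The pair of ATP5PD and ATP5F1B was chosen after its fold changes were seen, so its ratio shows the same measurements oocyte by oocyte and is no further evidence. A ratio of the counts of a gene pair inside a library does not depend on how libraries are scaled, and its change between groups can be read although its height cannot, since counts were not divided by length. The log2 ratio of ATP5PD to ATP5F1B in replicate 1 had a median of -0.99 (-2.45 to -0.34) at 100-109 μm and 1.09 (-0.81 to 2.38) at 110-119 μm, with the lowest and highest oocyte in brackets. In replicate 2 it was 1.38 (-0.24 to 2.84) and 2.86 (1.32 to 4.11). Both replicates thus had a higher median ratio at 110-119 μm, and oocytes of the groups overlapped in both. The ratio of ATP5PD to ATP5PO spanned less, with medians from -0.46 to 0.01 over the size groups of replicate 1 and from -0.27 to 0.12 in replicate 2. The medians of the ATP5PD to ATP5F1B ratio ran from -1.15 to 1.09 and from 1.07 to 3.20.

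**Figure D4:**
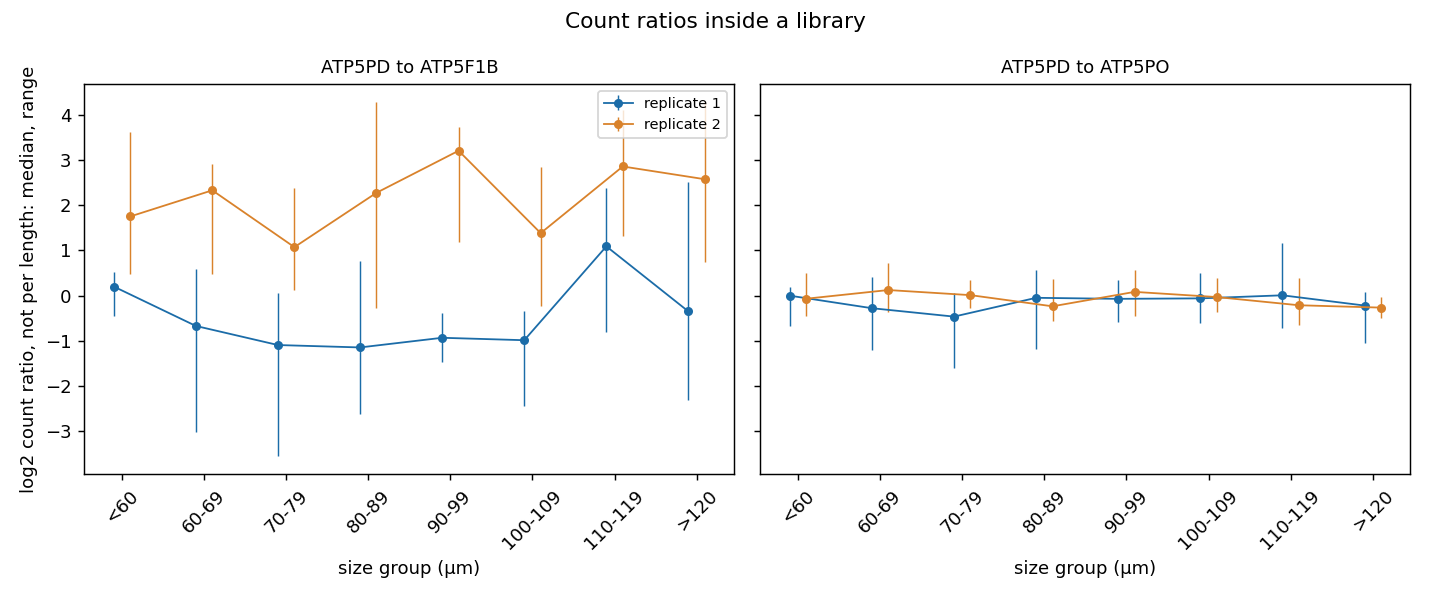
Log2 ratio of counts inside each library by size group in μm, for ATP5PD to ATP5F1B (left) and ATP5PD to ATP5PO (right). Points are medians over oocytes, bars run from the lowest to the highest oocyte, blue is replicate 1 and orange replicate 2. The left ratio shifts between replicates and rises from 100-109 to 110-119 μm in both, and the right ratio stays in a narrow band.

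The membrane part of the enzyme gave a reference for the head and stalks. From 100-109 to 110-119 μm, none of its 6 nuclear genes was called by edgeR (2 at an unadjusted p under 0.05, beside 3.88% and 26% of all genes), with a median log2 fold change of 0.58, beside 1.19 for the 3 genes of the peripheral stalk, -0.44 for the 5 of the head and central stalk and -0.06 over all genes. From 70-109 μm to 110 μm upward, where 14.8% of all genes were called, 2 of the 6 were called in opposite directions, ATP5MC1 with 0.68 ± 0.18 (SE) and ATP5MC2 with -0.73 ± 0.19 (SE) (adjusted p = 0.0142 and 0.0157), 2 genes that encode the same c subunit of the ring and whose reads the counting may not have kept apart. The same 2 were called between the extremes, ATP5MC1 higher (0.99 ± 0.30 (SE)) and ATP5MC2 lower (-1.44 ± 0.31 (SE)), where no head or stalk gene was called and 19.2% of all genes were. ATP6 and ATP8 were both lower at > 120 than at < 60 μm (-1.40 ± 0.44 (SE) and -1.46 ± 0.45 (SE), adjusted p = 0.0324 and 0.0301), but they share one mitochondrial transcript and their reads may not be independent.

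Among 5 genes for the inhibitor and the assembly of the enzyme, ATP23, a protease and assembly factor, was called higher from 100-109 to 110-119 μm (1.36 ± 0.33 (SE), adjusted p = 0.0396) and also from 70-109 μm to 110 μm upward (0.86 ± 0.19 (SE), adjusted p = 0.006). The other 4 were not called in either, so that 1 of 5 was called in each, beside 3.88% and 14.8% of all genes. The head of the vacuolar ATPase, a related proton pump with its own genes, had 0 of 9 genes called in the step to 110-119 μm (2 at an unadjusted p under 0.05, beside 3.88% and 26% of all genes, median 0.07), and 2 of 9 between the extremes, where 19.2% of all genes were called, ATP6V1B1 higher (1.77 ± 0.53 (SE)) and ATP6V1C1 lower (-1.19 ± 0.29 (SE)). Of 10 nuclear genes of cytochrome c oxidase, the enzyme before ATP synthase in respiration, none was called in that step (4 at an unadjusted p under 0.05, beside the same shares of all genes, median 0.55), where COX5A had 0.99 ± 0.31 (SE) and COX6C 1.49 ± 0.46 (SE) (adjusted p = 0.063 and 0.0651). From 70-109 μm to 110 μm upward COX5A was called higher (1.06 ± 0.18 (SE)) and COX8A, named after its value was seen, lower (-0.63 ± 0.18 (SE)), 2 of 10 beside 14.8% of all genes. Differences between these lists were not tested.

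The genes with a symbol whose level over the 16 sums was most like the mean of the 8 standardised member profiles were CHPT1 (r = 0.895), CCNH (r = 0.892), CETN2 (r = 0.891), CBX5 (r = 0.889) and AP1S2 (r = 0.887), out of 2915 candidates. The candidates are not a cross-section of the genes, since the symbols at hand came from shortened tables and 80.2% of them begin with A, B or C. The r of single members with the mean of the other 7 over the same sums ran from -0.52 for ATP5F1B to 0.72 for ATP5PD.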

How the data were processed

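Single oocytes were measured, lysed and sequenced as polyadenylated mRNA. The authors trimmed reads with Trim Galore (version 0.6.6, per the submitters' processing notes), aligned them with HISAT2 to ARS-UCD1.2 and counted them per gene in SeqMonk. What they deposited were raw read counts without batch correction. How multi-mapped reads, strand and overlapping genes were counted is not given in the sources used here, so a member with a near-identical copy elsewhere may hold some of its reads.

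Counts of a gene ID on more than 1 line were summed. The labels gave size group, diameter and replicate. The members' symbols were paired with gene IDs through the study's own tables. ATP5PF and other subunits without such a pair were not analysed here, and no sequences, transcript lengths or coordinates of the build used were at hand. Members and lists were chosen with earlier results of these data known. All 8 members are named. Of other lists, counts, medians and at most the 2 genes with the smallest p over the size groups are given, and the 5 genes most alike in pattern. The symbol tables were held here only in part, with 3584 symbols of which 80.2% begin with A, B or C, so the lists lack members. A few others are marked as named after their values were seen.

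For the tests, oocytes were pooled into 16 sums by size and replicate, and the sums were filtered with filterByExpr (minimum count 10, minimum total 15), which kept 14087 genes and all 8 members. edgeR 4.0.16 (TMM, size group and replicate block, quasi-likelihood test, Benjamini-Hochberg, threshold 0.05) gave 11 comparisons. SE is the fold change over the square root of F. Within a replicate, sums deviated together (r of 0.334 to 0.648 over 28 pairs of size groups), and the replicate is a library batch, so the number pairs them. Levels per oocyte are counts over the TMM effective library size, with a pseudocount of 1 for log2 values. Total counts per oocyte (277126 to 8038061) set the counting error. The steps were tested on simulated data. Alternatives were no block, RLE, DESeq2 1.42.0, no filter, single oocytes as units, thinning to 250000 counts, all 179 oocytes, limma 3.58.1 on mean log2(CPM + 1), 1 line per gene ID, each sum left out, and for diameter also log2(CPM + 10) and raw library size. Leaving out the deepest 100-109 μm oocyte and fitting the smaller ATP5F1C line were chosen after seeing the data. R was version 4.3.3 and Python 3.11.15.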

Additional observations from a re-analysis of the deposited data

Results flagged for a closer look

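Besides the oocytes of the comparisons, the table holds 14 more, and 13 of these had more than 3 counts on the 8 genes together. In the 9 of them with total counts from 113529 upward, the summed level of the 8 genes ran from 571.4 to 7094 CPM with a median of 3206, beside 1805 to 4587 CPM and a median of 2661 in the analysed oocytes. The highest, 7094 CPM, was an oocyte of < 60 μm in replicate 1 with 4933709 counts. The study's filters included the share of mitochondrial reads, and which filter removed this oocyte could not be rebuilt here. Size groups held more than 10 oocytes each, so no single oocyte was tested as an outlier.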

How the results depend on the processing

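No log2 fold change of a member with an unadjusted p under 0.05 changed sign under any of the 27 alternatives, while calls came and went. The stable signs are no independent evidence. These fold changes were picked by their p in the same data, and the alternatives refit the same or nearly the same oocytes. Of the 27, the rise to 110-119 μm was called in 16 for ATP5PD and 16 for ATP5PO, the fall of ATP5F1E in 18 and that of ATP5F1B from 70-109 μm to 110 μm upward in 12. ATP5PO, not called in that last comparison in the main analysis, was called higher there in 14, and in the step to 110-119 μm ATP5F1B was called lower and ATP5F1E higher in 6 each. The adjusted p-values of edgeR, DESeq2 and limma for the 4 calls of the main analysis ran up to 0.835. For the members called over the 8 size groups, between the extremes, from 100-109 to 110-119 μm, from below 70 to 70-109 μm and from 70-109 μm to 110 μm upward, 0, 0, 2, 1 and 1 in the main analysis (14.9, 19.2, 3.88, 9.5 and 14.8% of all genes), the numbers were 0, 0, 0, 0 and 0 (0, 0.575, 0, 0.185 and 0.149%) without the replicate block that pairs the sums of a library batch, 3, 0, 4, 1 and 2 (29.1, 24.3, 16.5, 14.9 and 19.8%) with DESeq2, 2, 0, 4, 1 and 2 (17.7, 15.2, 7.33, 8.94 and 12.4%) without the filter on low counts and 1, 0, 2, 1 and 3 (23.6, 25.2, 6.55, 16 and 24.4%) at 250000 counts per oocyte. With all 179 oocytes they were 0, 1, 0, 1 and 1 (11.1, 18.5, 0.0142, 9.34 and 14.1%), with limma on mean log2(CPM + 1) 0, 1, 0, 1 and 2 (24.2, 30.4, 1.9, 18.5 and 23.9%), and with single oocytes as units, which counts oocytes of 1 library batch as independent, 6, 3, 7, 4 and 7 (65.4, 40.5, 37, 39 and 46.4%), and 3 at 70-79 against below 70 μm (7.8% of all genes). The brackets hold the shares of all genes called, which the member counts may be read against. For DESeq2 they are shares of the genes to which it gave an adjusted p, 11902 of them from 100-109 to 110-119 μm. Leaving out 1 of the 16 sums at a time gave 0 to 2, 0 to 1, 0 to 4, 0 to 1 and 0 to 3 (10.6 to 18.9, 7.4 to 19, 0 to 9.94, 3.41 to 12.5 and 6.64 to 16.1% of all genes), and in other comparisons 0 to 1 at 70-79 against below 70 μm (0.0135 to 1.2%) and 0 to 1 at > 120 against 110-119 μm (0 to 1.99%). The causes were not tested.

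Pearson's r with diameter was 0.0145 for ATP5F1A, -0.0121 for ATP5F1B, 0.0143 for ATP5F1D and 0.194 for ATP5PB with all 179 oocytes, of which 1 had 10 counts, whereas Spearman's rho on the same oocytes was -0.27, -0.27, -0.03 and 0.05. Pearson's r was 0.0797 for the larger line of ATP5F1C, 0.0462 for ATP5F1D at 250000 counts, and -0.103 for ATP5F1D and -0.102 for ATP5PB with raw library sizes. Counts were lowest for ATP5F1D, with medians of 104 and 66 per oocyte in replicates 1 and 2, which limits the precision of its single-oocyte values.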
